A study of Mus musculus with 6 samples.

Results

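The genes described here encode the enzymes that turn arachidonic acid into leukotrienes and prostanoids, compared between tuft-like and non-tuft-like medullary thymic epithelial cells (mTEC) of the mouse. The set holds 10 genes of the 52636 gene rows in the count table. With earlier results of these data known, it was chosen by function, as the main enzymes of both routes. These are Pla2g4a, which frees arachidonic acid from membranes, the leukotriene genes Alox5, Alox5ap, Ltc4s and Lta4h, and the prostanoid genes Ptgs1, Ptgs2, Hpgds, Ptges and Tbxas1.

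Eicosanoids are short-lived lipid signals that a cell makes on demand and that act on receptors of nearby cells. Cytosolic phospholipase A2 releases arachidonic acid, which 5-lipoxygenase and its partner FLAP convert to leukotriene A4, or which a cyclooxygenase converts to prostaglandin H2. Leukotriene A4 then becomes leukotriene C4, the parent of the cysteinyl leukotrienes, or leukotriene B4, while prostaglandin H2 becomes prostaglandin D2, prostaglandin E2, thromboxane or other prostanoids, depending on the terminal enzyme. Tuft cells of the gut and airways are chemosensory epithelial cells that are known as a source of cysteinyl leukotrienes and prostaglandins, and the thymic medulla holds epithelial cells that resemble them.

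Both populations came from C57BL/6 mice at 6 weeks of age, with no genetic change or treatment in either. They were sorted from UEA1 positive mTEC, low in MHCII and CD80 by the paper's definition, that lacked Sca1 and CD63. Tuft-like mTEC carried CD117, the product of Kit, and CD66a, the product of Ceacam1, and non-tuft-like mTEC carried neither, so Kit and Ceacam1 follow from the gate. Each population gave 3 ultra-low input RNAseq libraries, and nothing in the labels says that they came from separate animals, so the p-values measure the spread between these libraries, which may be technical. The gate limits each population as a model, since the study found cells without Dclk1 protein among the tuft-like cells and regards the non-tuft-like cells as a likely mixture of mTEC. Reads counted on genes numbered 32582788, 48369825 and 28704373 for replicates 1, 2 and 3 of non-tuft-like mTEC and 20097617, 34243912 and 45928255 for those of tuft-like mTEC. Levels are given in this order of libraries as CPM (read counts relative to the TMM-scaled size of the library), and a positive log2 fold change means a higher level in tuft-like mTEC.

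The labels were checked against marker genes. Dclk1, a kinase that marks tuft cells, stood at 24.8, 23.8 and 36.9 CPM in the non-tuft-like and at 1269.9, 1644 and 1840.0 CPM in the tuft-like ones (log2 fold change 5.8, SE 0.41, edgeR FDR 0.000310). All 9 tuft cell markers, which were Dclk1, Trpm5, Pou2f3, Avil, Sh2d6, Sh2d7, Gnat3, Plcb2 and Il25, were higher in tuft-like mTEC. The non-tuft-like mean was between 1.44% and 22.5% of the tuft-like mean for these markers, with a median of 4.81%. Ceacam1 was higher in tuft-like mTEC (log2 fold change 4.12, FDR 0.000886), whereas Kit, at 185, 176 and 141 CPM against 301, 451 and 433 CPM, did not pass the threshold by edgeR's quasi-likelihood test (1.24, SE 0.29, FDR 0.0678). Kit was called higher in 8 of 14 alternatives, among them DESeq2, the likelihood ratio test and limma voom, and its log2 fold change lay between 1.10 and 1.41 in all 14. Of 7 markers of thymic epithelium none was higher in tuft-like mTEC at this threshold, while Krt14, Foxn1 and Aire were lower. At an unadjusted p under 0.05, by DESeq2 and by limma voom 1 gene was higher and 4 were lower, and by edgeR's likelihood ratio test none was higher and 4 were lower. The genes that DESeq2 added were Krt18, which was higher, and Krt5, at 247, 371 and 395 CPM against 10.1, 13.2 and 102 CPM (log2 fold change -3.02, edgeR FDR 0.0985). The 7 epithelial markers summed to 5674, 5972 and 5127 CPM in the non-tuft-like and 4696, 7166 and 10835 CPM in the tuft-like libraries. Krt8, a keratin of simple epithelia, was abundant in both populations, at 2879.8, 2573 and 1942 CPM in the non-tuft-like and 2609 to 5569 CPM in the tuft-like libraries. Epcam, which encodes the epithelial surface protein EpCAM1, was lowest in replicate 1 of both populations. It stood at 230, 771 and 930 CPM in the non-tuft-like and at 248, 784 and 1041 CPM in the tuft-like libraries. Bulk libraries give an average over the sorted cells, in which fewer cells of a type and less RNA per cell cannot be told apart.

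Of the 10 synthesis genes, all of which passed the filter on low counts, 5 were higher in tuft-like mTEC at an FDR under 0.05 and none was lower. Among all 32496 genes tested, 2.11% were called, 1.16% as higher and 0.951% as lower. The genes called higher were Alox5, Alox5ap and Ltc4s of the leukotriene route and Ptgs1 and Hpgds of the prostanoid route. The median log2 fold change of the 10 genes was 1.53, beside 0.02 over all genes tested. By unadjusted p under 0.05, 6 genes were higher and 2 were lower, beside 4.38% and 4.59% of all genes tested. The 2 lower genes were Ptgs2 and Ptges, which DESeq2 and edgeR's likelihood ratio test also called lower. In 6 genes all tuft-like libraries lay above all non-tuft-like libraries and in 2 all lay below, where 7.18% and 8.85% of all genes tested did so. Where only genes that averaged 10 CPM or more in one of the populations were considered, 3.05% were called higher and 2.5% lower. DESeq2 called 10.2% of the genes it tested.

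**Figure D1:**
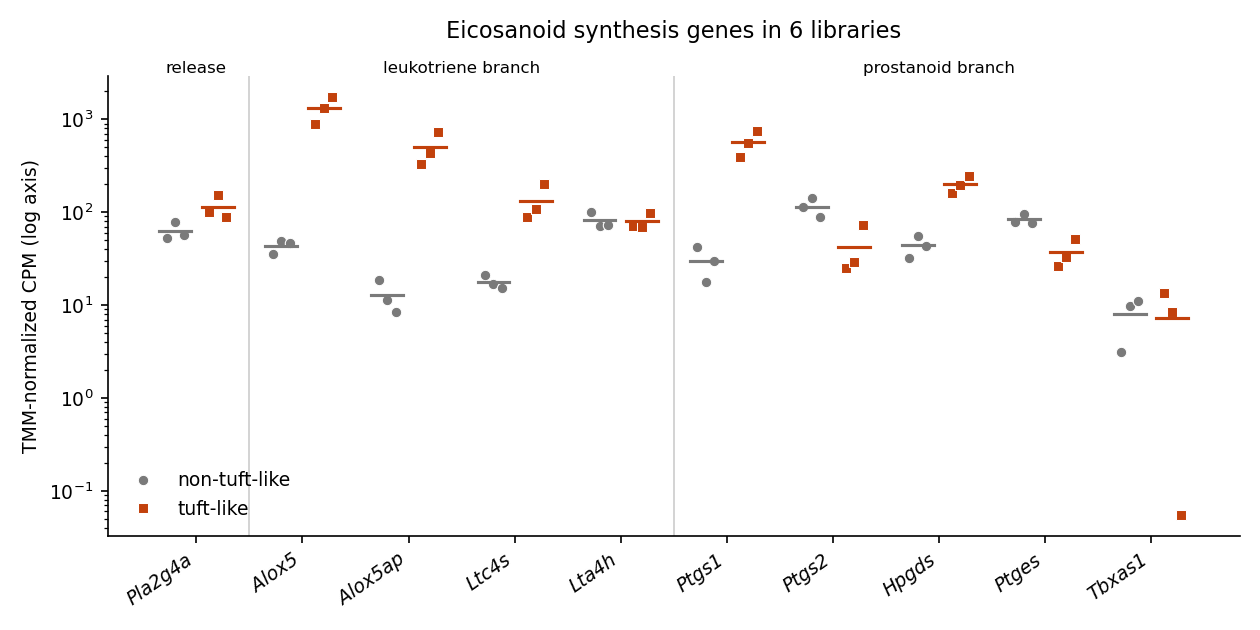
TMM-normalized CPM on a log axis for the 10 synthesis genes, with 1 point per library (3 non-tuft-like and 3 tuft-like) and bars at the means. Alox5, Alox5ap, Ltc4s, Ptgs1, Hpgds and Pla2g4a separate with tuft-like libraries above, and Ptgs2 and Ptges separate with tuft-like libraries below. The lowest Tbxas1 point is tuft-like replicate 3 at 0.0552 CPM.

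The leukotriene genes that act up to leukotriene C4 rose together in tuft-like mTEC. Alox5 encodes 5-lipoxygenase, the enzyme that commits arachidonic acid to the leukotriene route (ENSMUSG00000025701, mm10 chr6:116410077-116461178, minus strand). Its level was 35.2, 48.6 and 46.9 CPM in the non-tuft-like libraries and 885, 1309.9 and 1756 CPM in the tuft-like libraries. The groups were far apart, with means of 43.5 ± 7.31 and 1317 ± 435 CPM (SD, n = 3), and the lowest tuft-like library was still well above every non-tuft-like one. Alox5 was 30.2-fold higher in tuft-like mTEC (log2 fold change 4.92, SE 0.41, 95% interval 4.01 to 5.83, edgeR FDR 0.000418).

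Alox5ap encodes FLAP, the membrane protein that presents arachidonic acid to 5-lipoxygenase (ENSMUSG00000060063, chr5:149264767-149288153, plus strand). It stood at 18.7, 11.2 and 8.49 CPM in the non-tuft-like and at 332, 433 and 730.1 CPM in the tuft-like libraries. This was the largest change among the 10 genes, from a mean of 12.8 ± 5.27 to 498 ± 207 CPM (SD, n = 3), a fold of 38.9 (log2 fold change 5.28, SE 0.47, 95% interval 4.24 to 6.32, FDR 0.000451).

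Ltc4s encodes leukotriene C4 synthase, which joins glutathione to leukotriene A4 (ENSMUSG00000020377, chr11:50236461-50238616, minus strand). The non-tuft-like libraries had 21.2, 17.0 and 15.4 CPM and the tuft-like libraries 88.5, 108 and 200.03 CPM. The groups did not overlap, and the means of 17.9 ± 2.98 and 132 ± 59.6 CPM (SD, n = 3) differed 7.40-fold (log2 fold change 2.89, SE 0.37, 95% interval 2.06 to 3.71, FDR 0.00267). Lta4h encodes leukotriene A4 hydrolase, which makes leukotriene B4 instead (ENSMUSG00000015889, chr10:93453411-93484875, plus strand). Its level was 100.2, 71.5 and 73.2 CPM in the non-tuft-like and 70.6, 69.9 and 99.3 CPM in the tuft-like libraries. The libraries of the populations overlapped fully for this gene, and the difference was within the spread between replicates (log2 fold change -0.03, SE 0.29, 95% interval -0.66 to 0.60, FDR 1).

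Summed over the 4 leukotriene genes, the non-tuft-like libraries held 175, 148 and 144 CPM and the tuft-like libraries 1376, 1920.2 and 2785 CPM. Lta4h was the most abundant of the 4 by CPM in each non-tuft-like library, and Alox5 was the most abundant in each tuft-like library.

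Pla2g4a encodes cytosolic phospholipase A2 alpha, which supplies both routes (ENSMUSG00000056220, chr1:149829618-149961290, minus strand). The gene had 53.1, 78.4 and 56.4 CPM in the non-tuft-like and 99.7, 155 and 89.9 CPM in the tuft-like libraries. All tuft-like libraries were above all non-tuft-like libraries, yet the margin was small beside the replicate spread and the gene was not called (log2 fold change 0.87, SE 0.31, 95% interval 0.18 to 1.56, FDR 0.306).

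The cyclooxygenase genes gave opposite orders of the populations. Ptgs1 encodes cyclooxygenase-1, the form that many cells carry constantly (ENSMUSG00000047250, chr2:36230426-36252272, plus strand). It stood at 42.7, 17.7 and 29.9 CPM in the non-tuft-like and at 391, 556 and 745 CPM in the tuft-like libraries. With means of 30.1 ± 12.5 and 564 ± 177 CPM (SD, n = 3), Ptgs1 was 18.7-fold higher in tuft-like mTEC (log2 fold change 4.23, SE 0.43, 95% interval 3.27 to 5.19, FDR 0.000886). Ptgs2 encodes cyclooxygenase-2, the form that many cells switch on after a stimulus (ENSMUSG00000032487, chr1:150100031-150108227, plus strand). It had 113, 142 and 88.8 CPM in the non-tuft-like and 25.4, 29.2 and 72.8 CPM in the tuft-like libraries. All tuft-like libraries lay below the non-tuft-like ones, with replicate 3 well above the other two, and the difference did not pass the threshold (log2 fold change -1.44, SE 0.42, 95% interval -2.37 to -0.50, FDR 0.158). Without tuft-like replicate 3 the log2 fold change of Ptgs2 was -2.11 with an FDR of 0.00927.

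The terminal prostanoid enzymes also differed in direction. Hpgds encodes haematopoietic prostaglandin D synthase, which makes prostaglandin D2 (ENSMUSG00000029919, chr6:65117293-65144908, minus strand). The non-tuft-like libraries had 32.3, 55.9 and 43.5 CPM and the tuft-like libraries 161, 196 and 243 CPM. The groups were clearly separate and the tuft-like libraries close together, with means of 43.9 ± 11.8 and 200.3 ± 41.2 CPM (SD, n = 3), a fold of 4.56 (log2 fold change 2.19, SE 0.31, 95% interval 1.49 to 2.88, FDR 0.00478). Ptges encodes microsomal prostaglandin E synthase-1, the inducible enzyme that makes prostaglandin E2 (ENSMUSG00000050737, chr2:30889471-30929863, minus strand). Its level was 79.4, 95.5 and 77.1 CPM in the non-tuft-like and 26.7, 33.0 and 51.6 CPM in the tuft-like libraries. No tuft-like library reached the non-tuft-like range, but Ptges did not pass the threshold (log2 fold change -1.18, SE 0.32, 95% interval -1.88 to -0.47, FDR 0.114). Leaving out tuft-like replicate 3 gave -1.53 with an FDR of 0.0250.

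Tbxas1 encodes thromboxane A synthase, an enzyme best known from platelets and macrophages (ENSMUSG00000029925, chr6:38875404-39084585, plus strand). The gene had 3.09, 9.79 and 11 CPM in the non-tuft-like and 13.6, 8.42 and 0.0552 CPM in the tuft-like libraries, the last of these from 2 reads. The libraries of one population were as far apart as those of different populations, and the interval of the difference was wide (log2 fold change -0.12, SE 1.27, 95% interval -2.93 to 2.69, FDR 1). Summed over the 5 prostanoid genes, the levels were 271, 321 and 250.3 CPM in the non-tuft-like and 618, 823 and 1113 CPM in the tuft-like libraries.

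**Figure D2:**
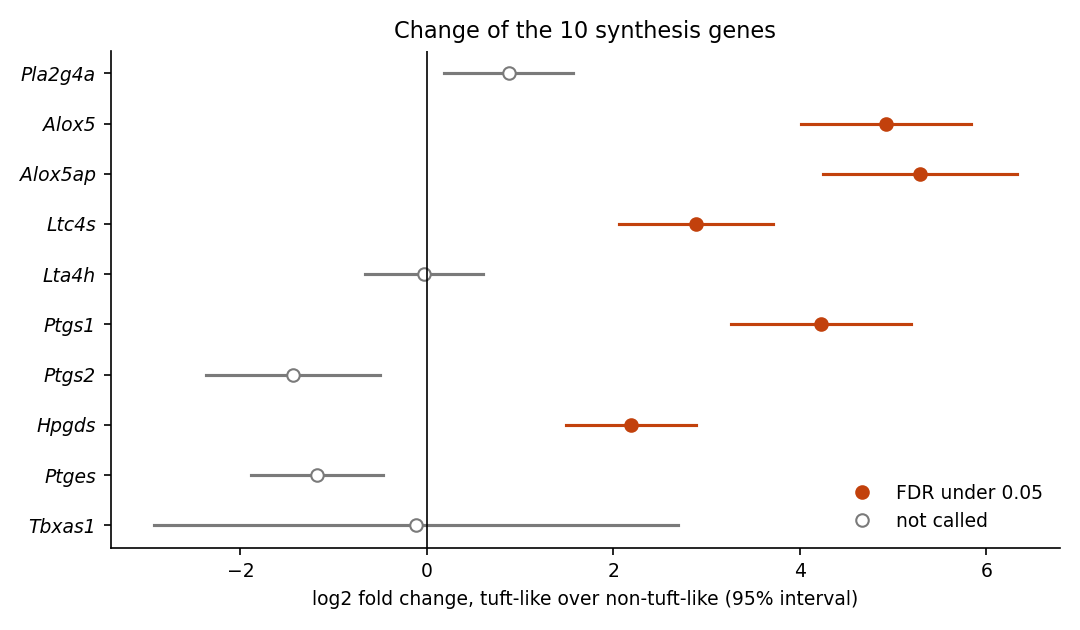
Fitted change (log2 fold change) of each synthesis gene, tuft-like over non-tuft-like, with its 95% interval from edgeR's quasi-likelihood fit (3 libraries against 3) and colours for genes called and not called at an FDR of 0.05. Values run from 5.28 for Alox5ap to -1.44 for Ptgs2, and the Tbxas1 interval spans -2.93 to 2.69.

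The 5 genes that rose were each lowest in tuft-like replicate 1 and highest in replicate 3. This order was not particular to them, since Ptgs2, Ptges, the tuft cell markers Dclk1, Avil and Pou2f3 and the keratins Krt8 and Krt18 had it too. Reads that fell on no annotated gene made up 61.6% of all reads in tuft-like replicate 1, 47.6% in replicate 2 and 19.7% in replicate 3, and 34.4%, 36.6% and 52.5% in the non-tuft-like libraries. The part of this share in the fold changes was not tested. With any 1 library left out, the log2 fold change stayed within 4.62 to 5.14 for Alox5, 4.86 to 5.63 for Alox5ap, 2.42 to 3.11 for Ltc4s, 3.94 to 4.56 for Ptgs1 and 1.98 to 2.40 for Hpgds, and all 5 genes remained called.

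Sequence upstream of the start site is shown for the first enzyme of the leukotriene route and for both cyclooxygenase genes, whose levels went in opposite orders. Each run gives the 250 bases before the RefSeq start site of GRCm38.p6, the mm10 assembly, 5′ to 3′ on the gene's strand, and capitals mark the GC box GGGCGG, the motif of Sp1 family factors.
Alox5 (chr6:116461179-116461428, minus strand): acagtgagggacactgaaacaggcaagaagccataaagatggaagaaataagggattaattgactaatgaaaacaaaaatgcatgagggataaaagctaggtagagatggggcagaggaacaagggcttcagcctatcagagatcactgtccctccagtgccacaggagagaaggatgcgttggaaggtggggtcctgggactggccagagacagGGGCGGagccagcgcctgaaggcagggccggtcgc
Ptgs1 (chr2:36230176-36230425, plus strand): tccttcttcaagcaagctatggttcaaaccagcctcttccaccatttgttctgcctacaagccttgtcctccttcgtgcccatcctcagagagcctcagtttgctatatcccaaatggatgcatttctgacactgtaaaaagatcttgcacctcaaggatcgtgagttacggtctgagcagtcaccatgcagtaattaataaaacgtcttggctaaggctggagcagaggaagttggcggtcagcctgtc
Ptgs2 (chr1:150099781-150100030, plus strand): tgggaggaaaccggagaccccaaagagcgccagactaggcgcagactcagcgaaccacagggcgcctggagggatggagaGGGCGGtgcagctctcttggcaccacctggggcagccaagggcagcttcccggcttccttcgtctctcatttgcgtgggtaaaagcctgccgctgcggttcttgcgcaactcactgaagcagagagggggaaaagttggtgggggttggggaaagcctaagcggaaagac
The GC box of Alox5 began 35 bases and that of Ptgs2 began 170 bases before the start site, and the Ptgs1 run held none. RefSeq windows of 300 bases, from 250 before to 50 after a start site, were at hand for 9 of the 10 genes, all but Alox5ap. The GC box, read as GGGCGG or CCGCCC on either strand, was in windows of 3 of the 9 genes, Alox5, Ptgs2 and Ptges, beside 38.2% of all genes with a window.

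The octamer ATGCAAAT, or ATTTGCAT on the other strand, is the motif of POU factors, the family of the tuft cell regulator Pou2f3. It was in the window of 1 of the 9 genes, Hpgds, beside 1.97% of all 27025 genes with a window. The octamer is in capitals in the 30 bases around it on the minus strand.
Hpgds (chr6:65144886-65144915, minus strand): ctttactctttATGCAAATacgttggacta
This match lies 174 bases before the RefSeq start site of Hpgds but inside the first exon of GENCODE M21, which starts 178 bases farther upstream than RefSeq. Both motif counts describe letters in these windows and were not tied to binding of any factor.

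Levels of different genes were compared per kilobase of exon, with the exons of all annotated transcripts joined, so the ranks depend on the annotation. On this scale Alox5ap and Alox5 were the most abundant of the 10 genes in tuft-like mTEC. They stood at 351 ± 146 and 321 ± 106 CPM per kb (SD, n = 3), with libraries of 234, 305 and 514 for Alox5ap and 216, 319 and 428 for Alox5, so the order of this pair was not beyond the spread. Ptgs1 with 145 ± 45.6 and Ltc4s with 130.3 ± 58.8 CPM per kb formed the next pair, which also overlapped. Hpgds followed with 31.2 ± 6.42 CPM per kb, then Pla2g4a with 18 ± 5.47 and Lta4h with 13.1 ± 2.75. Ptges, Ptgs2 and Tbxas1 came last, with 9.43 ± 3.29, 9.27 ± 5.75 and 0.807 ± 0.749 CPM per kb. In non-tuft-like mTEC the levels were closer together, and the order was another one. Ptgs2 had the highest mean with 25.1 ± 5.86 CPM per kb, followed by Ptges with 21.4 ± 2.55, Ltc4s with 17.6 ± 2.94 and Lta4h with 13.4 ± 2.64. The libraries of each of these genes overlapped those of the next, so the order of neighbours was not beyond the spread. Alox5, Pla2g4a, Alox5ap, Ptgs1 and Hpgds lay between 10.6 ± 1.78 and 6.84 ± 1.84 CPM per kb, and Tbxas1 again came last with 0.875 ± 0.468.

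A low level in these libraries can come from reads not tied to expression, and olfactory receptor genes, which mTEC would express at most sparsely, were used as a measure of it. The 99th percentile over 1134 such genes was 1.74, 1.73 and 2.71 CPM per kb in the non-tuft-like and 2.75, 2.02 and 1.24 CPM per kb in the tuft-like libraries. In all 6 libraries 9 of the 10 synthesis genes were above this level, by at least 2.20-fold in the non-tuft-like libraries (Alox5ap) and at least 2.02-fold in the tuft-like libraries (Ptgs2). Tbxas1 was below this level in all 6. Its length of 9094 bases joins the exons of every annotated transcript, and a shorter transcript would raise its level per kb. Whether Tbxas1 exceeds such reads therefore cannot be decided here. The non-tuft-like mean was 2.57% of the tuft-like mean for Alox5ap, 3.31% for Alox5, 5.34% for Ptgs1, 13.5% for Ltc4s and 21.9% for Hpgds, beside the range of 1.44% to 22.5% for the tuft cell markers.

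Ratios of gene pairs within a library do not depend on how libraries were scaled. They were computed as log2 ratios of reads per kb for 6 pairs, with an exact two-sided permutation test, which with 3 libraries against 3 cannot give a p under 0.10. Ltc4s over Lta4h, which share leukotriene A4 as substrate, had log2 ratios of 0.35, 0.52 and 0.34 in the non-tuft-like and 2.92, 3.22 and 3.60 in the tuft-like libraries. The ratio was thus 7.16-fold higher in tuft-like mTEC (difference 2.84 on the log2 scale), with no overlap (exact permutation p = 0.10, adjusted p = 0.15 over the 6 pairs).

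Ptgs1 over Ptgs2 was among the 6 pairs the one with the largest difference. Its log2 ratios were -1.17, -2.77 and -1.33 in the non-tuft-like and 4.18, 4.49 and 3.59 in the tuft-like libraries. Cyclooxygenase-2 transcripts were the more abundant of the pair in every non-tuft-like library and cyclooxygenase-1 transcripts in every tuft-like library, a 57.5-fold difference in the ratio (5.85 on the log2 scale, exact permutation p = 0.10, adjusted p = 0.15). Hpgds over Ptges, the terminal enzymes for prostaglandins D2 and E2, differed in the same direction. The log2 ratios were -2.01, -1.48 and -1.53 in the non-tuft-like and 1.89, 1.86 and 1.53 in the tuft-like libraries (difference 3.43, or 10.8-fold, exact permutation p = 0.10, adjusted p = 0.15).

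The other pairs differed less or rested on few reads. Alox5ap over Alox5 had log2 ratios of 0.62, -0.58 and -0.93 in the non-tuft-like and 0.12, -0.07 and 0.27 in the tuft-like libraries. With these exon lengths the partners stood near parity in tuft-like mTEC, and the groups overlapped (difference 0.40, exact permutation p = 0.40). Alox5 over Ptgs1, the first enzymes of the routes, had -0.36, 1.38 and 0.57 in the non-tuft-like and 1.10, 1.16 and 1.16 in the tuft-like libraries. The SD of this ratio was 0.03 in tuft-like and 0.87 in non-tuft-like mTEC, and the means of 1.14 and 0.53 were not separated (exact permutation p = 0.40). Hpgds over Tbxas1 had 3.88, 3.01 and 2.48 against 4.07, 5.04 and 12.29, where the last value rests on 2 Tbxas1 reads, and without that library the difference fell from 4.01 to 1.43 on the log2 scale.

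**Figure D3:**
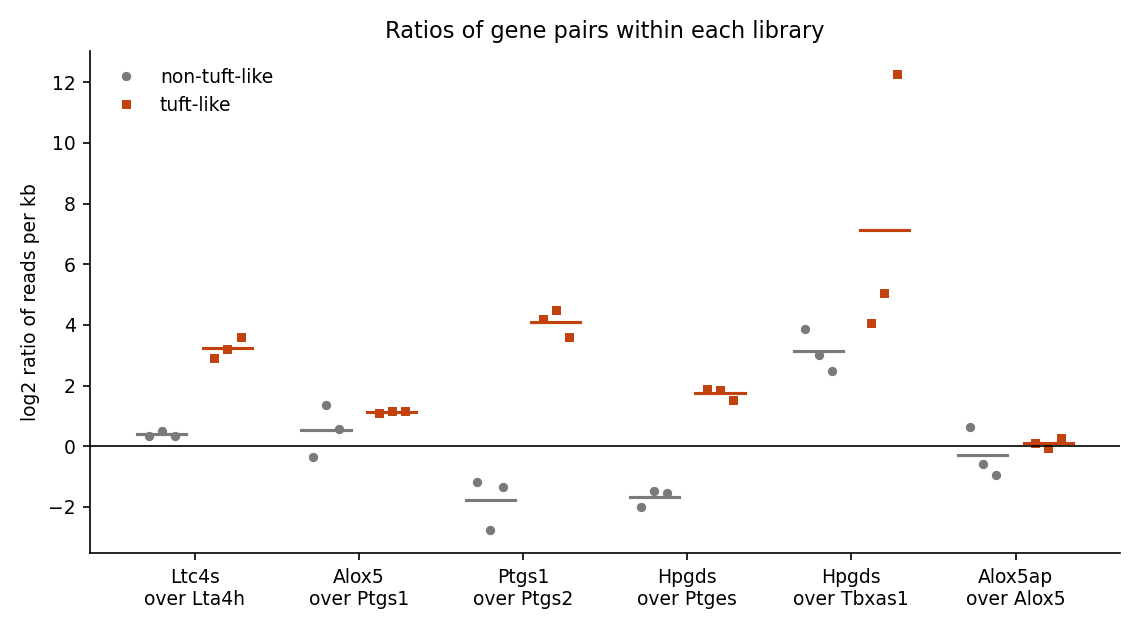
Log2 ratio of reads per kb for the 6 gene pairs, 1 point per library (3 non-tuft-like and 3 tuft-like), with bars at the group means. Ptgs1 over Ptgs2 and Hpgds over Ptges lie below 0 in all non-tuft-like and above 0 in all tuft-like libraries, and Alox5 over Ptgs1 is nearly the same in the 3 tuft-like libraries (1.10 to 1.16).

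The rest of the eicosanoid pathway was listed as 67 further genes, of which 65 passed the filter on low counts (Pla2g2a and Tbxa2r did not). In tuft-like mTEC edgeR's quasi-likelihood test called 2 higher and 7 lower and did not call 56, with a median log2 fold change of -0.69. These 9 calls became 19 by DESeq2, 15 by the likelihood ratio test and 17 by limma voom. With 1 library left out they ranged from 4 (without tuft-like replicate 2) to 15 (without tuft-like replicate 3). At an unadjusted p under 0.05, 6 were higher and 18 lower, where 4.38% and 4.59% of all genes tested were. Over all genes tested, 1.16% were called higher and 0.951% lower, as given above, and the median log2 fold change was 0.02.

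Other lipoxygenases fell in 3 of 6 cases and rose in none, with a median log2 fold change of -2.75, while at an unadjusted p under 0.05 there were 1 higher and 4 lower, and DESeq2, the likelihood ratio test and limma voom each called 4 lower and none higher. Alox15, the 12/15-lipoxygenase, stood at 256, 238 and 273 CPM in the non-tuft-like and at 14.4, 24.3 and 58.7 CPM in the tuft-like ones (log2 fold change -2.98, SE 0.48, FDR 0.00934, and -3.76 without tuft-like replicate 3). Aloxe3 and Alox12b, which act in series in the lipid barrier of skin, had 52.1, 40.5 and 53.5 CPM against 8.68, 1.99 and 5.27 CPM, and 62.2, 43.5 and 77.8 CPM against 2.19, 8.56 and 11 CPM. Both were lower in tuft-like mTEC (log2 fold changes -3.20 and -3.07, FDR 0.0120 and 0.0196), Alox12b not so without tuft-like replicate 2 (FDR 0.0530). Alox12e, an epidermal 12-lipoxygenase with the highest level per kb in this list, had 762, 873 and 1193 CPM against 71.5, 83.2 and 339 CPM and was not called by edgeR's quasi-likelihood test (-2.52, SE 0.59, FDR 0.0614), while the other 3 tests called it lower. Alox8, another lipoxygenase of this list, had 29.98, 34.4 and 22.4 CPM against 23.8, 60.8 and 144 CPM and was called by none of the 4 tests (1.40, edgeR FDR 0.388).

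Genes beside the main leukotriene enzymes were called in both directions. Mgst3, a microsomal glutathione transferase of the same family as leukotriene C4 synthase and FLAP, had 46.4, 77.3 and 47.8 CPM in the non-tuft-like and 137, 167 and 231 CPM in the tuft-like ones (log2 fold change 1.64, SE 0.33, FDR 0.0288). Ggt5, which converts leukotriene C4 to D4, had 83.9, 76.7 and 53.3 CPM against 10.7, 11.8 and 1.22 CPM (-3.17, SE 0.69, FDR 0.0454). The other 7 genes of this list of 9 were not called by edgeR's quasi-likelihood test, and its median log2 fold change was -0.04. DESeq2, the likelihood ratio test and limma voom each called 1 higher and 2 lower, and DESeq2 added Mgst1, a related glutathione transferase, at 28.6, 38.0 and 45.4 CPM against 8.22, 1.61 and 9.72 CPM (-2.52, edgeR FDR 0.0844). Both calls were lost when certain single libraries were left out, with FDR values of up to 0.147 for Mgst3 (without any of the non-tuft-like libraries or tuft-like replicate 2 or 3) and 0.0834 for Ggt5 (without any of the non-tuft-like libraries or tuft-like replicate 1 or 2). The call of Ggt5 was also lost with RLE factors, with library size only and with a filter of at least 1 CPM in 3 libraries.

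Among the other prostanoid synthases, Fam213b, a prostaglandin F synthase with the highest level per kb in its list, had 120.2, 154 and 130.5 CPM in the non-tuft-like and 27.2, 31.9 and 42.7 CPM in the tuft-like libraries. It was lower in tuft-like mTEC (log2 fold change -1.99, SE 0.29, FDR 0.00547), and none of the 4 tests called the other 6 genes of this list. Of the 7 genes of transport and breakdown, edgeR's quasi-likelihood test called 1 higher and 1 lower, both prostaglandin reductase genes. Ptgr1, which also inactivates leukotriene B4, had 33.3, 55.3 and 49.7 CPM against 4.01, 7.13 and 9 CPM and fell (-2.78, SE 0.44, FDR 0.00844, and 0.0588 without non-tuft-like replicate 2). Zadh2, prostaglandin reductase 3, had 9.15, 13.1 and 10.8 CPM against 29.7, 51.1 and 51.0 CPM and rose (1.99, SE 0.38, FDR 0.0253), with an FDR of up to 0.168 without any of the non-tuft-like libraries or tuft-like replicate 2. Ptgr2, the third reductase gene of the list, had 44.2, 46.4 and 34.5 CPM against 54.9, 80.01 and 73.9 CPM and was not called (0.74, FDR 0.389). At an unadjusted p under 0.05 this list had 2 genes higher and 4 lower, and DESeq2, the likelihood ratio test and limma voom each called 1 higher and 3 lower. DESeq2 added the leukotriene C4 exporter gene Abcc1, at 274, 337 and 313 CPM against 100.1, 121 and 175 CPM (-1.22, edgeR FDR 0.0797), and the prostaglandin transporter gene Slco2a1, at 139, 187 and 155 CPM against 41.9, 54.2 and 92.2 CPM (-1.35, edgeR FDR 0.0823). Hpgd, the 15-hydroxyprostaglandin dehydrogenase that starts the breakdown of prostaglandins, was the most abundant of its list per kb, at 93.9, 136 and 97.8 CPM against 47.9, 31.0 and 78.9 CPM, and was not called (-1.05, FDR 0.284).

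Calls among genes that release or re-esterify arachidonic acid depended on the test. Of all genes tested, edgeR's quasi-likelihood test called 2.11% and DESeq2 10.2%. None of the 19 tested phospholipases A2 of a list of 20 was called by edgeR's quasi-likelihood test, with a median log2 fold change of -0.69, while 1 was higher and 5 were lower at an unadjusted p under 0.05, and DESeq2 called 1 higher and 4 lower, the likelihood ratio test 1 higher, and limma voom 1 higher and 2 lower. Pla2g2f, a secreted enzyme with the highest level per kb in this list, had 51.9, 90.3 and 98.6 CPM in the non-tuft-like and 9.46, 11 and 48.2 CPM in the tuft-like libraries (-1.81, edgeR FDR 0.239) and was among the genes that DESeq2 called lower. Pla2g16, the most abundant of the list by CPM, had 68.9, 66.8 and 46.0 CPM against 120.3, 143 and 213 CPM (1.39, edgeR FDR 0.0546) and was the gene that DESeq2, the likelihood ratio test and limma voom called higher. Lpcat2, an acyltransferase that also makes platelet-activating factor, had 52.4, 58.4 and 59.1 CPM against 19.1, 11.5 and 23.1 CPM and was the 1 gene of 4 re-esterification genes that edgeR's quasi-likelihood test called (-1.66, SE 0.35, FDR 0.0410, and up to 0.192 without any of the non-tuft-like libraries or tuft-like replicate 1 or 2). DESeq2, the likelihood ratio test and limma voom each called 1 higher and 1 lower in this list, and DESeq2 added Acsl4, an acyl-CoA synthetase that prefers arachidonic acid, at 27.5, 68.6 and 31.8 CPM against 111, 161 and 114 CPM (1.59, SE 0.38, edgeR FDR 0.0719). Lpcat3, the most abundant of these 4 per kb, had 147, 132 and 91.3 CPM against 70.4, 71.2 and 79.3 CPM (-0.74, FDR 0.349). Eicosanoid receptor genes were mostly at low levels, with 10 of 14 under 10 CPM in both populations. None of the 13 tested was called by edgeR, DESeq2 or limma voom, and none had an unadjusted p under 0.05. Cysltr2, a receptor for cysteinyl leukotrienes and the most abundant of the list per kb, had 13.6, 24.7 and 24.3 CPM against 7.15, 3.86 and 17.1 CPM (-1.15, FDR 0.777).

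**Figure D4:**
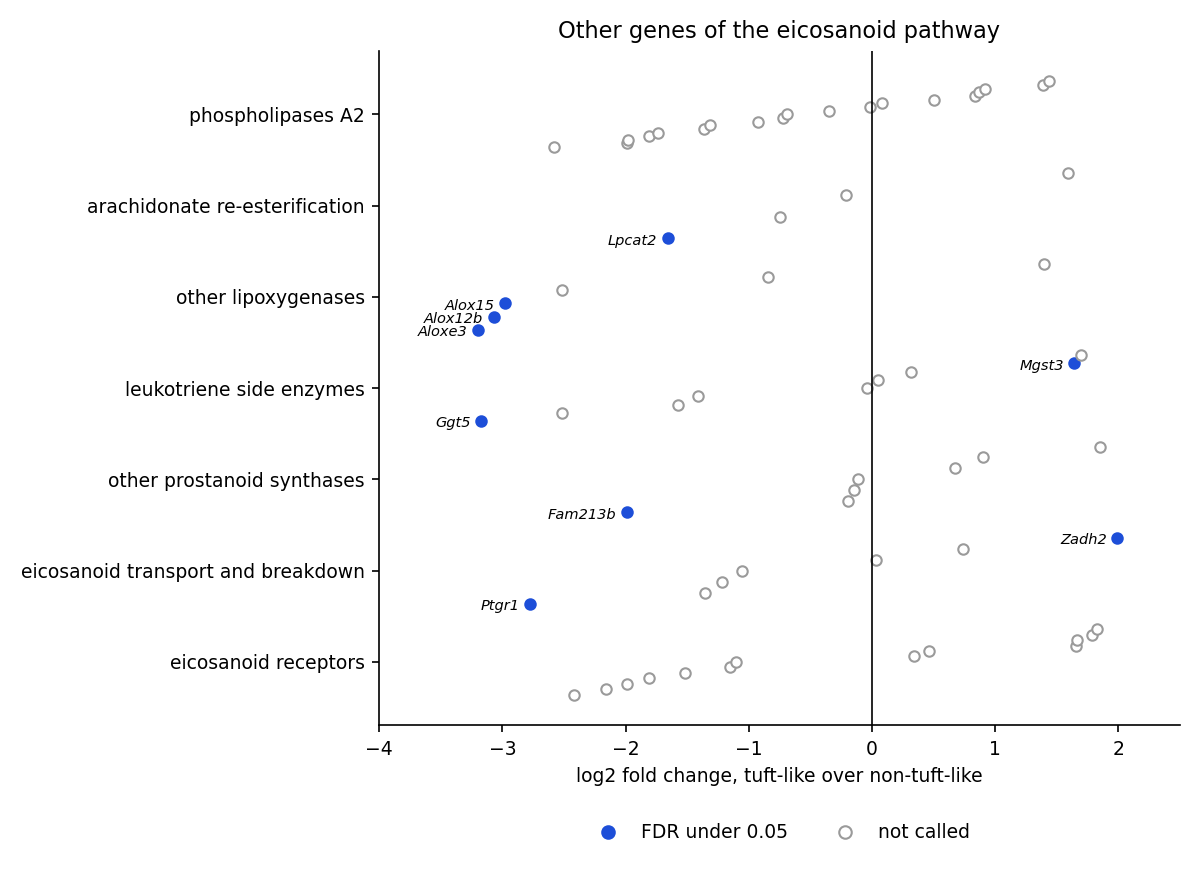
Log2 fold change, tuft-like over non-tuft-like, of the tested genes in each list of the eicosanoid pathway (1 point per gene, set apart vertically only for legibility), with colours for genes called and not called at an FDR of 0.05. Of 65 genes 2 are called to the right of 0 (Mgst3 and Zadh2) and 7 to the left, among them Aloxe3, Alox12b and Alox15.

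Mast cells, basophils, eosinophils, macrophages, neutrophils and platelets also carry enzymes of these routes, so their markers were set beside the synthesis genes. The study's gate for tuft-like mTEC lay within EpCAM1 positive cells that lack CD45, a surface protein of nucleated blood cells, so such cells would be removed as far as the sort was pure. No listed marker was at 0 in all 6 libraries. The 10 mast cell markers summed to 436, 400.2 and 258 CPM in the non-tuft-like and 88.4, 70.5 and 201 CPM in the tuft-like libraries. Most of each sum came from Hdc, the histidine decarboxylase gene, at 424, 396 and 240 CPM against 65.1, 56.5 and 193 CPM. Without Hdc the sums were 11.3, 4.17 and 18.3 CPM against 23.3, 14.0 and 8.56 CPM, and no other mast cell marker exceeded 8.4 CPM in any library. Hdc and Gata2, a transcription factor of mast cells, were highest among the tuft-like libraries in replicate 3, with Gata2 at 1.69, 2.10 and 8.4 CPM. Their part in the result was not tested. None of the 9 tested mast cell markers was called by edgeR's quasi-likelihood test, although 2 were lower at an unadjusted p under 0.05 and Hdc was called lower by DESeq2, the likelihood ratio test and limma voom.

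Of the markers of the other blood cell types, edgeR's quasi-likelihood test called 3, Il5ra, Epx and Cd68, all lower in tuft-like mTEC. The 8 basophil and eosinophil markers summed to 136, 64.8 and 83.6 CPM in the non-tuft-like and 16.3, 22.4 and 16.3 CPM in the tuft-like libraries, and 2 of 6 tested were called lower, Il5ra (log2 fold change -2.10, FDR 0.0258) and Epx (-6.90, FDR 0.0238). Epx stood at 43.3, 9.45 and 24.1 CPM against 0.579, 0.0877 and 0 CPM, so the size of its fold rests on few tuft-like reads. DESeq2 and the likelihood ratio test called 3 of this list lower and limma voom only Il5ra. DESeq2 added Prg2, at 9.62, 16.5 and 6.01 CPM against 0.0413, 0.585 and 0 CPM (edgeR FDR 0.128). The 10 macrophage and dendritic cell markers summed to 350.2, 305 and 222 CPM against 190.1, 131 and 188 CPM, with Lyz2 the most abundant. In this list each of the 4 tests called 1 marker, by edgeR Cd68, which fell from 32.2, 37.1 and 48.7 CPM to 3.60, 4.44 and 3.92 CPM (-3.30, FDR 0.00280). The 7 platelet markers summed to 18.4, 9.03 and 16.1 CPM against 15, 10.8 and 4.53 CPM, with Itga2b the most abundant and no single value above 9.47 CPM. The 8 markers of leukocytes and T cells, led by Ptprc, summed to 22.1, 43.6 and 33.3 CPM against 69.3, 49.0 and 16.8 CPM. None of the platelet or leukocyte markers was called by edgeR, DESeq2 or limma voom, and none had an unadjusted p under 0.05. For comparison, the 9 tuft cell markers, led by Avil, summed to 815, 876 and 675 CPM against 10792, 15505 and 17552 CPM.

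Neutrophil and stromal markers varied widely among the tuft-like libraries. The 8 neutrophil markers, led by Ltf, summed to 109.8, 156 and 114 CPM in the non-tuft-like and 50.5, 212 and 183 CPM in the tuft-like libraries, and none was called by edgeR's quasi-likelihood test or limma voom, while 2, S100a8 and S100a9, were lower by DESeq2 and 2 at an unadjusted p under 0.05, and 1 by the likelihood ratio test. The 6 fibroblast markers, led by Dcn, summed to 36.8, 31.7 and 60.1 CPM against 164, 71.7 and 14.8 CPM, with none called by any of the 4 tests or at an unadjusted p under 0.05. The 5 endothelial markers summed to 35.7, 63.7 and 37.9 CPM against 338, 171 and 231 CPM, of which Tek, called higher (log2 fold change 2.93, FDR 0.00565), made up 22.2, 36.7 and 11.4 CPM against 169, 142 and 225 CPM. Without Tek the endothelial sums were 13.5, 27.0 and 26.5 CPM against 169, 29.1 and 5.69 CPM. Among the tuft-like libraries, replicate 3, where the 5 raised synthesis genes were highest by TMM-scaled CPM, had the lowest fibroblast, leukocyte, platelet and Tek-free endothelial sums. This library also had the highest mast cell sum with Hdc and the lowest without it. Its neutrophil and macrophage sums lay between those of the other libraries. The part of these cell types in the results was not tested.

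**Figure D5:**
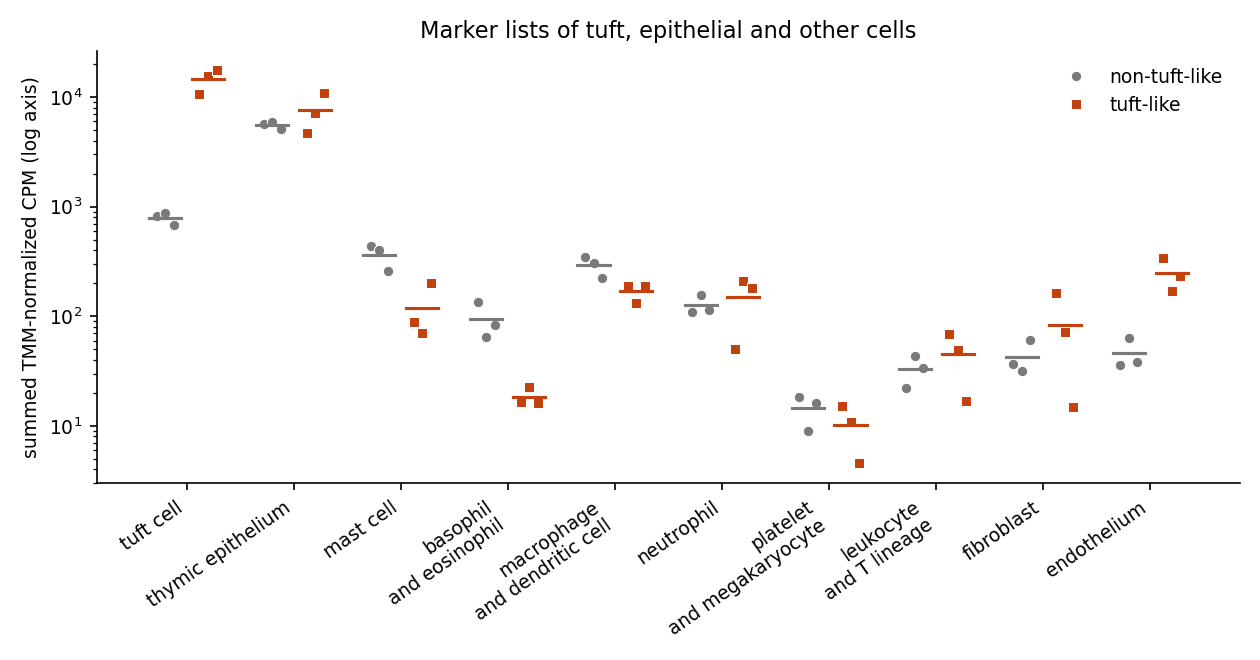
Summed TMM-normalized CPM on a log axis for each list of marker genes, 1 point per library (3 non-tuft-like and 3 tuft-like), with bars at the group means. The tuft cell sums lie between 10792 and 17552 CPM in tuft-like libraries against at most 876 CPM in non-tuft-like libraries, while the platelet and leukocyte sums do not exceed 69.3 CPM.

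Some counts can include reads of overlapping genes, since the strand setting of the counting is not given in the sources used here. Exons of genes on the other strand overlap 189 of 1420 exon bases of Alox5ap, 268 of 1014 of Ltc4s, 148 of 3884 of Ptgs1 and 144 of 9094 of Tbxas1. Among the called pathway genes named, Fam213b shares 25 of 1027 exon bases with Mmel1 and Lpcat2 shares 287 of 3388 with Gm45472, both on the other strand. Alox5, Hpgds, Pla2g4a, Lta4h, Ptgs2 and Ptges share no exon bases with another gene in GENCODE M21. Pla2g4a and Ptgs2 are neighbours on chromosome 1, with 138740 bases between them. Their levels differed in opposite directions, and edgeR's quasi-likelihood test called neither. DESeq2, the likelihood ratio test and limma voom called Ptgs2 lower, and none of them called Pla2g4a.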

How the data were processed

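The authors sequenced 3 tuft-like and 3 non-tuft-like mTEC libraries. Cells went into trizol by the paper, while the labels name a column kit. Per the submitters' processing notes and methods, reads were trimmed with Trimmomatic 0.36, aligned to mm10 with STAR 2.7.3a and counted per gene with HTSeq, and the deposited counts are not normalized. The annotation release is not given in the sources used here. Rows of reads on no gene (19.7% to 61.6% of reads) and 92 ERCC rows, all at 0, were left out.

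Gene identifiers were matched to GENCODE M21 (99.7% of rows). In R 4.3.3, edgeR 4.0.16 filtered genes (filterByExpr, minimum count 10, minimum total 15), applied TMM and ran the quasi-likelihood test without covariates. FDR is the Benjamini-Hochberg adjusted p over all tested genes, with a threshold of 0.05. SE is the absolute log2 fold change over the square root of F. Ratios used reads per kb with 0.5 counts added, and lengths joined the exons of all transcripts in GENCODE M21. The depth puts a floor of 3 counts at 0.0639 to 0.124 CPM, which covers counting error only. The scripts were tested on simulated data, where genes with a true log2 fold change of 2 in size were called in 34.4% of cases. Those of 4 were called in 59.3%, so a gene not called may still differ. Of 90 calls 3 were false.

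The synthesis genes, pathway lists and markers were chosen with earlier results of these data known. All synthesis genes, called pathway and marker genes, and the most abundant gene of each list (pathway lists per kb, marker lists by CPM) were named. Others (Epcam, Krt5, Krt18, Alox8, Mgst1, Ptgr2, Abcc1, Slco2a1, Acsl4, Pla2g16, Gata2, Prg2, S100a8, S100a9, Pla2g2a and Tbxa2r) were named after their values were seen. Alternatives were RLE factors, library size only, DESeq2 1.42.0, the likelihood ratio test, limma 3.58.1 voom, 2 other filters, a block on replicate number, a stricter FDR and each library left out.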

Additional observations from a re-analysis of the deposited data

How the results depend on the processing

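Alox5, Alox5ap, Ltc4s, Ptgs1 and Hpgds were called under all 14 alternatives tried for each, with an FDR of at most 0.0256. Ptgs2 was called lower in 6 of 14 (library size only, DESeq2, the likelihood ratio test, limma voom, no filter, and without tuft-like replicate 3), Ptges in 5 of 14 (library size only, DESeq2, the likelihood ratio test, at least 1 CPM in 3 libraries, and without tuft-like replicate 3), and Pla2g4a in 0 of 14. The number of synthesis genes called was 7 by library size only, DESeq2 and the likelihood ratio test, 6 by limma voom, without a filter and with at least 1 CPM, 5 at an FDR of 0.01, and 5 to 7 with 1 library left out.

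The 687 differing genes became 1045 by library size only, 1904 by DESeq2, 1236 by the likelihood ratio test, 905 by limma voom, 1127 without a filter, 910 with at least 1 CPM, 319 at an FDR of 0.01, and 376 to 922 with 1 library left out (376 without tuft-like replicate 2, 379 without non-tuft-like replicate 2). The 9 pathway genes called became 19 by DESeq2, 15 by the likelihood ratio test, 17 by limma voom, 18 without a filter and 4 to 15 with 1 library left out.

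Values near 0 changed sign, without a call, for Lta4h (0.13 without non-tuft-like replicate 1, 0.06 without tuft-like replicate 1 or 2, range -0.26 to 0.13 with 1 library left out) and Tbxas1 (0.0138 by library size only, 0.05 and 0.17 without non-tuft-like replicates 2 and 3, 0.42 without tuft-like replicate 3, range -0.91 to 0.42 with 1 library left out), and Tbxas1 was at -2.23 by limma voom, also not called. The causes were not tested.

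Libraries with the same replicate number did not deviate together over the tested genes. Correlations of their deviations were -0.16, -0.06 and -0.33, and 0 of 6 libraries correlated best with their own number. With 3 libraries per population this cannot exclude a pairing, on which the labels are silent. With the replicate block 737 genes, 5 synthesis genes and 15 pathway genes were called. At these depths the limit that a count of 0 allows was at most 0.124 CPM in any library.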
